A study of Mus musculus with 10 samples.

Results

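Sox4 and Cd24a are 2 genes of the 28808 that any of the 10 count tables lists, and both stand in every table. They were followed because the series title names the return of a developmental program in the injured adult kidney. The libraries are Drop-seq libraries, in which single cells are captured in droplets with barcoded beads and the 3′ ends of their transcripts are counted as unique molecular identifiers (UMIs). The tissue was kidney cortex of mice. The age listed for every library, from control to day 14, is 4 weeks. Whether this is the age at injury or at collection is not known here. The control is 1 library from normal kidneys, and injured kidneys gave 1 library each on days 1, 2 and 4 and 2 libraries each on days 7, 11 and 14. The labels name neither the kind of injury nor the strain, sex or number of animals, and do not say that the paired libraries came from different mice, so p-values measure the spread between these libraries, which may be technical.

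Sox4 encodes a transcription factor of the SOXC group, which binds DNA through an HMG box and is active in embryonic progenitors, the nephron progenitors among them. Cd24a encodes a small, heavily glycosylated protein that a lipid anchor holds on the outer face of the cell membrane, and it is known from developing epithelia, from scattered cells of the adult tubule and from blood cell precursors. The proximal tubule, which reabsorbs most of the filtrate, is the segment most open to acute injury.

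Sox4 (ENSMUSG00000076431.4) lies on the minus strand of mm10 at chr13:28948919-28953713 in GENCODE M21. It is a gene with 1 exon of 4795 bases, of which 2783 are the 3′ untranslated region. Gm26735, a lincRNA on the opposite strand at chr13:28943048-28951671, covers 2753 of those bases, where 3′-end reads of Sox4 fall. No source here says whether the counting used strand, so reads of the pair cannot be told apart with certainty, and Gm26735 UMIs are given as a share of Sox4 UMIs in the tested classes. Cd24a (ENSMUSG00000047139.9) lies on the plus strand at chr10:43578284-43584265 and overlaps no annotated gene. The 236 bases before the annotated start of Sox4, from RefSeq (GRCm38.p6, chr13:28953714-28953949, minus strand), are shown because the start-proximal sequence of Sox4 is the one regulatory stretch given here, with CCAAT boxes (CCAAT or its reverse complement) in capitals.
Sox4 promoter: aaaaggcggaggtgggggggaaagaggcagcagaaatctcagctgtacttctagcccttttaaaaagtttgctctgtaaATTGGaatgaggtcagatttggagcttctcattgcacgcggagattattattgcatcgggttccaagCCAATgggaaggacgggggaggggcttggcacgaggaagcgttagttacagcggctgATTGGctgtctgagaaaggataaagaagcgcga
The window holds 3 CCAAT boxes, which 2.51% of 32851 RefSeq promoter windows of the same length match or exceed, and 32.7% hold at least 1. It holds no SOX core (ACAAAG), AP-1 site (TGANTCA), GC box (GGGCGG) or TATA box (TATAAA) on either strand, letters that 15.7%, 6.50%, 30.8% and 11.9% of the windows hold.

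The tables held 7091848 to 31632205 UMIs per library, and 52797 cells were used, with median UMIs per cell of 1244 to 2662. Cells were placed in classes by the UMIs of fixed marker genes, none of which is Sox4 or Cd24a: a class needed 3 UMIs from 2 of its markers and 2 times the UMIs of the next class. Libraries shared at most 11 cell barcodes. The day 11 libraries stood apart as deposited: their cells held as few as 300 genes, against 500 in the others, and 7 and 9 of their barcodes held an undetermined base, against 132 to 471. The filter of 500 genes left 5409 of 10800 and 5283 of 10711 day 11 barcodes, and the part of this in the day 11 comparisons was not tested. The median mitochondrial share of a cell's UMIs was 23.6% in the control and 3.64% and 4.32% on day 7, and the mix of classes differed as much: gated proximal cells were 3718 of 5434 tubular cells in the control, 437 of 1785 and 689 of 2373 on day 7, and 5117 of 6439 and 4570 of 5826 on day 14. Tubular cells that no segment gate took numbered 213 in the control and 722 and 714 on day 7. On day 7 these cells gave 30.6% and 25.4% of all Sox4 UMIs and 30.3% and 26.3% of all Cd24a UMIs, against 11.96% and 7.07% in the control.

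Sox4 in all gated tubular cells stood at 66.9 CPM (UMIs of the gene per 1e6 UMIs of the class) in the control. It was at 325 CPM on day 1, 210 on day 2 and 200.5 on day 4, at 452 and 521 CPM in the day 7 libraries, at 58.5 and 37.9 on day 11 and at 26.1 and 26.8 on day 14. Both day 7 libraries lie above every other library, and both day 14 libraries lie below every other. Gm26735 followed the same course, with 23.5 CPM in the control, 224 and 184 on day 7 and 7.16 and 5.65 on day 14, and its UMIs were 20.1% to 49.6% of the Sox4 UMIs of the same library. In proximal cells this share was 21.3% in the control, 35.9% and 33.4% on day 7 and 17.1% and 8.0% on day 14. Over the libraries it ran from 19.7% to 49.5% in thick limb cells and from 23.6% to 57.4% in endothelial cells.

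The mean of Sox4 on day 7 was 487 ± 48.9 CPM (SD, n = 2), which was 7.27 times the control library. In a fit across 16304 genes with TMM scaling, Sox4 rose from control to day 7 by 2.09 on the log2 scale (SE 0.28, adjusted p = 0.000279, edgeR quasi-likelihood test, Benjamini-Hochberg adjusted). Of all genes, 34.4% were called in this comparison. The scaling takes 0.77 from the log2 change of the median gene, and on library totals alone the change of Sox4 was 2.86, with 87.3% of called genes higher on day 7 in place of 47.9%. From day 7 to day 11 Sox4 fell by 2.56 (SE 0.22, edgeR adjusted p = 1.27e-05), where 44.3% of genes were called, and from day 7 to day 14 by 3.35 (SE 0.23, edgeR adjusted p = 2.16e-06), where 46.1% were. On library totals 15.9% and 14.5% of the genes called in these drops were higher at the later day, in place of 52.3% and 52.8%, and Sox4 fell by 3.34 and 4.20.

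By day 14 Sox4 in the tubular sums was under its control level. The change from control was -1.26 (SE 0.25, edgeR adjusted p = 0.0174), in a comparison with 7.96% of genes called, of which 57.1% were higher (46.4% on library totals). Day 11 did not differ from the control beyond the threshold (-0.47, SE 0.25, edgeR adjusted p = 0.210, 18.4% of genes called), but passed in a fit of those groups alone (-0.57, edgeR adjusted p = 0.0321). Day 14 was lower than day 11 by -0.79 (SE 0.21, edgeR adjusted p = 0.0378, 12.2% of genes called, 995 higher and 994 lower, and 676 and 1118 on library totals). The 3 comparisons with the control share its 1 library. Proximal cells, the tubular class with the least Sox4 in the control, held 54.7% of all UMIs there and 72.5% and 72.6% on day 14. The day 14 mean of Sox4 was 1.03 times the control in proximal and 0.59 times in thick limb cells. It was 0.61 times in distal and connecting, 0.37 in principal and 0.62 in intercalated cells. Of these only proximal and thick limb cells were tested, with results below. The part of the class mix in the tubular change was not tested. The calls on day 14 rest on both of its libraries: without the first the change from control was -1.24 (edgeR adjusted p = 0.0810) and without the second -1.27 (edgeR adjusted p = 0.105), and the drop from day 11 did not pass without either of them or without the first day 11 library (-0.46, edgeR adjusted p = 0.266).

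Cd24a in tubular cells was at 219 CPM in the control. It was at 854 CPM on day 1, 721 on day 2, 605 on day 4, 982 and 1289 on day 7, 334 and 255 on day 11, then 124 and 143 on day 14. The order of the days resembles that of Sox4, with the highest values on day 7 and the lowest on day 14, but the day 11 libraries lie above the control. The mean on day 7 was 1136 ± 217 CPM (SD, n = 2), 5.19 times the control.

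Cd24a rose from control to day 7 by 1.61 on the log2 scale (SE 0.27, edgeR adjusted p = 0.00118). It fell by 1.17 from day 7 to day 11 (SE 0.21, edgeR adjusted p = 0.00115), by 2.24 from day 7 to day 14 (SE 0.21, edgeR adjusted p = 1.71e-05) and by 1.07 from day 11 to day 14 (SE 0.21, edgeR adjusted p = 0.0102). On library totals these changes of Cd24a were 2.38 for the rise, -1.95 to day 11 and -3.09 to day 14. The day 14 mean of Cd24a was 0.61 times the control in the tubular sums. By class it was 0.95 times in proximal, 1.02 in thick limb, 1.38 in distal and connecting, 1.26 in principal and 0.98 in intercalated cells. The part of the class mix in the tubular day 14 values was not tested. Neither day 11 (0.44, SE 0.26, edgeR adjusted p = 0.253) nor day 14 (-0.63, SE 0.25, edgeR adjusted p = 0.131) differed from the control beyond the threshold. The day 14 change passed with no filter on low counts (-0.74, edgeR adjusted p = 0.0195) and in a fit of those groups alone (-0.71, edgeR adjusted p = 0.0190). The drop from day 11 to day 14 was lost without the first day 11 library (-0.88, edgeR adjusted p = 0.0661), the first day 14 library (-0.98, edgeR adjusted p = 0.111) or the second (-1.18, edgeR adjusted p = 0.0659).

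**Figure D1:**
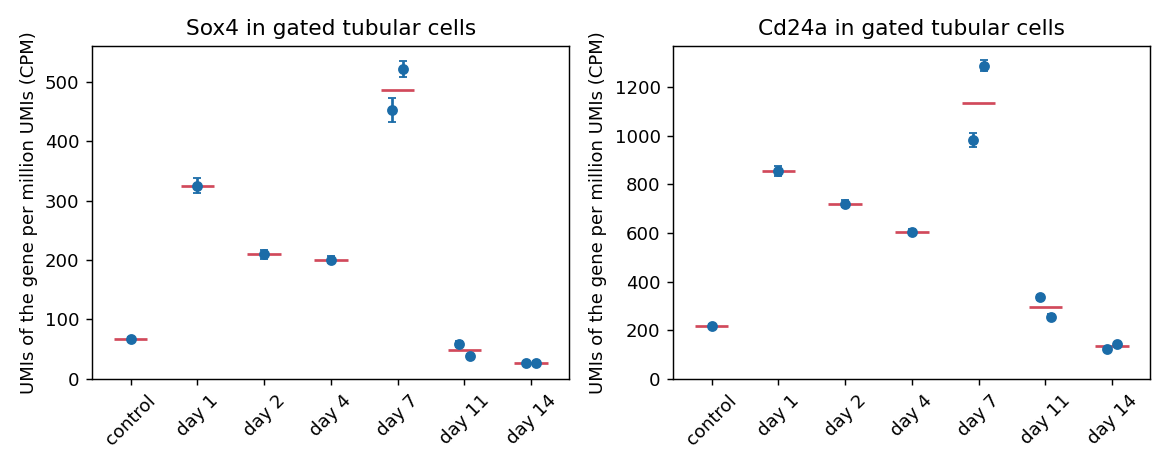
Sox4 (left) and Cd24a (right) in the summed UMIs of gated tubular cells, in CPM, for each of 10 libraries by day. Points are libraries with exact Poisson intervals that cover counting error only, and red lines are group means: both genes are highest on day 7, with Sox4 at 452 and 521 CPM and Cd24a at 982 and 1289 CPM.

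Depth differs between libraries, so the share of tubular cells with a UMI was read after thinning cells to 1000 UMIs. Shallower cells were left out of this and of all thinned or equal-depth shares below. This kept 5207 of 5434 tubular cells in the control, 2136 of 2665 on day 1 and 1276 of 1785 and 2022 of 2373 on day 7. Shares before thinning are of all gated tubular cells, so the 2 kinds of share cover different cells. For Sox4 this share was 4.46% in the control, 25.6% on day 1, 33.2% and 35.2% on day 7, then 2.22% and 2.42% on day 14, against 14.3%, 38.6%, 45.7% and 55.8%, and 5.75% and 5.87% before thinning. For Cd24a the thinned share was 10.8% in the control, 45.3% on day 1, 48.7% and 51.5% on day 7, 12.8% and 10.9% on day 11 and at most 8.32% on day 14, against 23.1%, 57.7%, 57.8% and 66.1%, 17.8% and 14.4%, and at most 14.9% before thinning. The share of tubular cells with a UMI of either gene was thus higher in both day 7 libraries than in the control, while the mix of tubular classes also differed. In macrophage cells of the day 7 libraries the thinned shares were 6.09% and 5.14% for Sox4 and 11.2% and 9.90% for Cd24a.

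Since the share of proximal cells among tubular cells differed between libraries, the genes were next read within each class. In gated proximal cells Sox4 was low in the control, with 108 UMIs in 3718 cells or 6.70 CPM. It was at 133 CPM on day 1, 68.1 on day 2, 148 on day 4, 296 and 400.2 on day 7, 14.2 and 11.1 on day 11, then 6.71 and 7.15 on day 14. The mean on day 7, 348 ± 73.8 CPM (SD, n = 2), was 51.9 times the control, and the day 14 mean was 1.03 times it. In the fit, Sox4 in proximal cells rose on day 7 by 4.84 (SE 0.33, edgeR adjusted p = 3.85e-06), where 37.4% of 14802 genes were called. Day 11 (0.79, SE 0.29, edgeR adjusted p = 0.0798, 21.4% of genes called) and day 14 (-0.10, SE 0.29, edgeR adjusted p = 0.852, 8.84% called) did not pass. The day 11 value passed on library totals with no scaling factor (0.92, edgeR adjusted p = 0.0398) and without either day 7 library (edgeR adjusted p = 0.0289 and 0.0295).

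Thick limb cells, which reabsorb salt and make uromodulin, held Sox4 already in the control, at 126 CPM. They were at 462 CPM on day 1, 471 on day 2, 326 on day 4, 511 and 543 on day 7, 114 and 76.3 on day 11, then 80.8 and 68.8 on day 14. The day 7 mean of 527 ± 22.7 CPM (SD, n = 2) was 4.18 times the control, and Sox4 rose there by 1.41 (SE 0.25, edgeR adjusted p = 0.000481, 20.7% of 11397 genes called). Neither day 11 (-0.46, SE 0.25, edgeR adjusted p = 0.241, 10.5% called) nor day 14 (-0.79, SE 0.25, edgeR adjusted p = 0.128, 1.28% called) passed. With no filter on low counts the day 14 value passed (-0.87, edgeR adjusted p = 0.0270).

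The classes that differed widely in the control therefore stood close on day 7. The other distal classes went with the thick limb: Sox4 was at 132 CPM in distal and connecting cells of the control and 458 and 557 on day 7. In principal cells of the collecting duct, which take up water through aquaporins, it was at 190 CPM in the control and 502 and 547 on day 7. Intercalated cells, which move acid and base, had the highest Sox4 of the tubular classes in the control, at 303 CPM, and stood at 583 and 781 CPM on day 7. On day 7 the proximal, thick limb, distal and connecting, and principal cells lay between 296 and 557 CPM. Tubular cells that no segment gate took, whose segment is not known, held 212 CPM of Sox4 in the control and 499.9 and 616 on day 7, and 415 and then 1031 and 1531 CPM of Cd24a.

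On the log2 scale the change on day 7 was larger in proximal than in thick limb cells. In CPM the Sox4 mean went from 6.70 to 348 in proximal and from 126 to 527 in thick limb cells. That of Cd24a went from 10.9 to 153 in proximal and from 635 to 1960 in thick limb cells, so in CPM the rise was not larger in proximal cells. A fit of both classes with a term for each library put the difference in log2 change at 3.40 for Sox4 (SE 0.23, edgeR adjusted p = 4.18e-07), where 18.6% of 13541 genes differed. This fit was added after the levels had been seen. On day 11 the difference for Sox4 was 1.34 (SE 0.26, edgeR adjusted p = 0.0269, 1.04% of genes called), which did not pass with the stricter gate (1.18, edgeR adjusted p = 0.0585), with no filter on low counts (1.29, edgeR adjusted p = 0.0552), or without any 1 of the day 11 and day 14 libraries (edgeR adjusted p = 0.0809 to 0.179). On day 14 it was 0.75 (SE 0.26, edgeR adjusted p = 0.212, 1.04% of genes called).

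Cd24a kept a different order of classes. In proximal cells it was at 10.9 CPM in the control, 119 on day 1, 80.7 on day 2, 111 on day 4, 142 and 164 on day 7, 33.1 and 32.4 on day 11, then 8.88 and 11.7 on day 14. In thick limb cells it was at 635 CPM in the control, 1904 on day 1, 2850 on day 2, 2499 on day 4, 1656 and 2264 on day 7, 1104 and 993 on day 11, then 638 and 656 on day 14. Proximal and thick limb values stayed far apart in every library, with no overlap. The Cd24a peak in thick limb cells fell on day 2, in 1 library of 86 such cells, and not on day 7.

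Cd24a rose on day 7 in proximal cells by 2.96 (SE 0.27, edgeR adjusted p = 1.71e-05) and in thick limb cells by 0.98 (SE 0.24, edgeR adjusted p = 0.00593). On day 11 it was still raised in proximal cells (1.46, SE 0.26, edgeR adjusted p = 0.00368), while in thick limb cells the value was 0.65 (SE 0.23, edgeR adjusted p = 0.0839), which passed without either day 7 library (edgeR adjusted p = 0.0116 and 0.0111). On day 14 the values were -0.23 (SE 0.25, edgeR adjusted p = 0.585) and -0.00 (SE 0.23, edgeR unadjusted p = 0.988). The difference in log2 change between the classes was 1.94 on day 7 (SE 0.21, edgeR adjusted p = 1.92e-05) and 0.88 on day 11 (SE 0.21, edgeR adjusted p = 0.0618).

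Principal cells held Cd24a at 803 CPM in the control, 1409 and 2245 on day 7, 1448 and 1643 on day 11, then 945 and 1082 on day 14. They therefore remained above the control library on days 11 and 14, when Sox4 in the same cells was at 191 and 125.5 CPM and then at 59.2 and 82.5 CPM. Intercalated cells held Cd24a at 157 CPM in the control, 930.4 and 1080.0 on day 7 and 125 and 181 on day 14. Days after control were not tested in these classes.

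**Figure D2:**
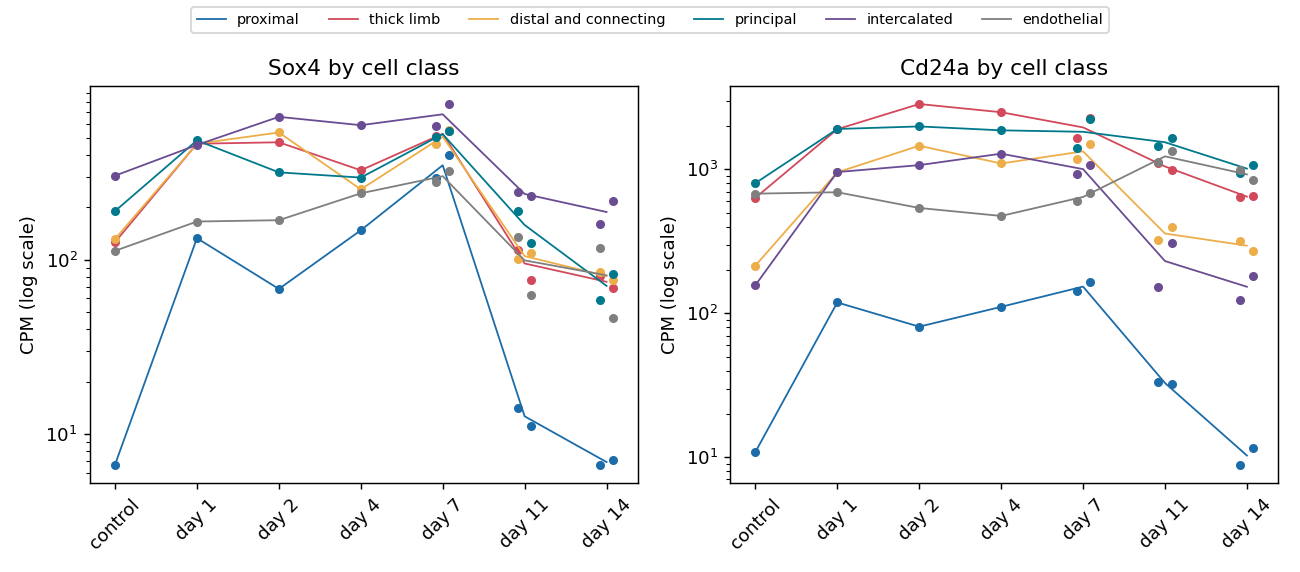
Sox4 (left) and Cd24a (right) in CPM, on a log axis, in the 5 tubular classes and endothelial cells by day. Points are libraries and lines join group means. Proximal Sox4 goes from 6.70 CPM in the control to 296 and 400.2 on day 7, near the other classes, while proximal Cd24a, at 142 and 164 CPM on day 7, lies below the other classes.

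Free RNA in droplets gives cells UMIs of genes they do not express, so both genes were compared with gated macrophage cells of the same library. Whether macrophage cells express either gene themselves was not tested, so they are not a known empty background. This class was chosen after its values were seen, because the planned one, endothelial cells, held Cd24a at 475 to 1335 CPM. On day 7 proximal Sox4, at 296 and 400.2 CPM, stood above the 72.5 and 52.5 CPM of macrophage cells. It was 4.95 times their level on day 4 and 3.30 times on day 2, but on day 1, at 133 against 98.6 CPM, 1.35 times, with only 10 macrophage UMIs.

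Proximal Cd24a did not stand out in this way. It was at 142 and 164 CPM on day 7 against 158 and 112 in macrophage cells, at 111 against 121 on day 4, 80.7 against 82.5 on day 2 and 119 against 306 on day 1. The thinned shares of cells with a Cd24a UMI on day 7 were 11.1% and 11.9% of proximal and 11.2% and 9.90% of macrophage cells, and those with a Sox4 UMI 22.3% and 25.6% against 6.09% and 5.14%. Median UMIs per cell were 1707 and 2745 in proximal and 1291 and 1731 in macrophage cells. Over the 6 libraries with more than 3 macrophage Cd24a UMIs, proximal cells were higher in CPM in 1, the second of day 7. Their thinned share was higher there, on day 2 (10.4% against 6.35%) and in the second day 11 library (2.35% against 2.13%). It was lower on day 1 (12.9% against 22.4%), on day 4 (10.7% against 10.9%) and in the first day 7 library. The comparison for day 11 rests on 4 macrophage UMIs in 1 library. The libraries left out held 2 or fewer macrophage Cd24a UMIs, so the count over 6 does not cover libraries with the fewest. Proximal and macrophage Cd24a there were 10.9 and 0 CPM in the control and 33.1 and 6.93 in the first day 11 library. On day 14 they were 8.88 and 0 CPM in the first library and 11.7 and 34.3 in the second. Within the class, Vcam1-positive and Vcam1-negative proximal cells held 95.9 and 125 CPM of Cd24a on day 1, 71.2 and 83.2 on day 2, 133 and 85.5 on day 4, then 158 and 115 in the first day 7 library and 190 and 93.4 in the second. On day 11, with 22 and 20 positive cells, the values were 319 and 30.3 CPM in the first library and 289 and 30.9 in the second. The part of free RNA in the tested rise of proximal Cd24a was not tested. The ratio of Sox4 to Cd24a UMIs in macrophage cells, 0.459 and 0.468 on day 7, was near that of all tubular cells, 0.460 and 0.404, whereas in proximal cells it was 2.08 and 2.43. Macrophage markers in turn reached tubular cells: the 9 in the tables summed to 9.36 CPM there in the control, 242 and 111 on day 7 and 10.6 and 10.5 on day 14. Endothelial markers summed to 23.7 CPM in tubular cells of the control and 73.9 and 36.3 on day 7. Stromal markers summed to 18.4 CPM in tubular cells of the control and 113 and 63.0 on day 7, podocyte markers to 18.9 and then 64.1 and 42.8, and erythroid markers to 2.29 and then 107 and 3.905. The part of these cells in the results was not tested.

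**Figure D3:**
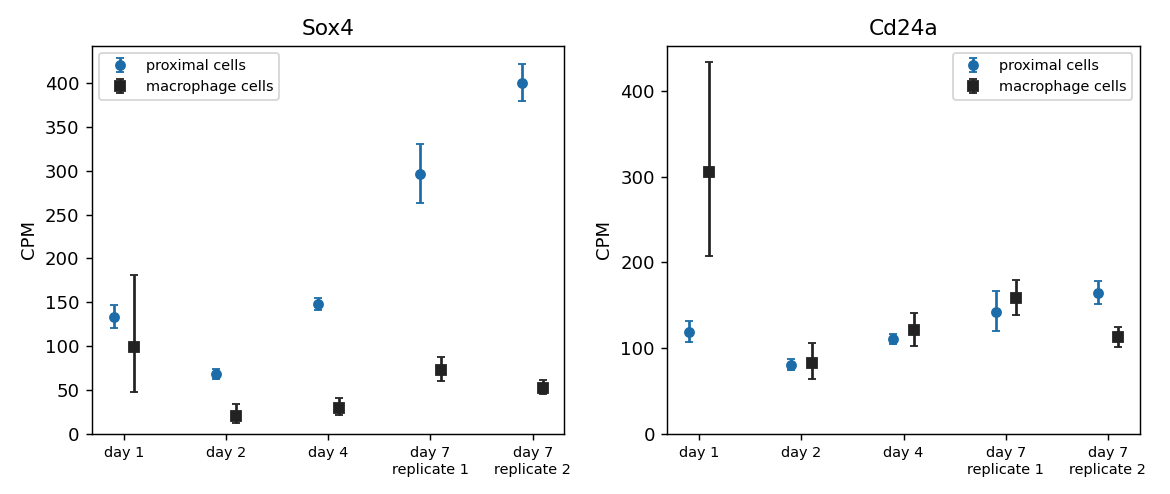
Sox4 (left) and Cd24a (right) in CPM in proximal cells (circles) and macrophage cells (squares) of the same 5 libraries, days 1 to 7, with exact Poisson intervals for counting error. Sox4 separates the classes from day 2 on, whereas Cd24a is higher in proximal cells only in the second day 7 library (164 against 112 CPM).

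Endothelial cells, which line the vessels, also held both genes. Sox4 there was at 113 CPM in the control, 280 and 322 on day 7, 136 and 62.8 on day 11, then 117 and 46.3 on day 14. The day 7 value of 1.24 (SE 0.38, edgeR adjusted p = 0.0629, 3.49% of 7018 genes called) missed the threshold. It passed with the stricter gate (1.36, edgeR adjusted p = 0.0269), on library totals (1.45, edgeR adjusted p = 0.0280) and without the first day 7 library (1.34, edgeR adjusted p = 0.0373) or either day 14 library (edgeR adjusted p = 0.0266 and 0.0225). Cd24a was at 679 CPM in the control, 608 and 681 on day 7, 1131 and 1335 on day 11, then 999 and 850 on day 14, so that its highest values came on day 11, when tubular Cd24a had dropped. The day 11 value was 0.90 (SE 0.28, edgeR adjusted p = 0.0565, 4.59% of genes called), day 7 was -0.26 (SE 0.27, edgeR adjusted p = 0.768) and day 14 was 0.40 (SE 0.28, edgeR adjusted p = 0.556, 1.71% called). The day 11 value passed with the stricter gate (0.94, edgeR adjusted p = 0.0451) and without either day 7 library (edgeR adjusted p = 0.0411 and 0.0339). Sox4 on days 11 (-0.08, SE 0.40, edgeR adjusted p = 0.934) and 14 (-0.46, SE 0.42, edgeR adjusted p = 0.683) did not differ beyond the threshold.

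Within each library, tubular cells with and without markers of a cell state were then compared. Cells with at least 1 Sox9 UMI, a SOX factor of repairing tubules, had more Sox4 in 9 of 9 libraries, by a mean of 1.03 on the log2(CPM + 1) scale (SD 0.76, two-sided exact sign-flip permutation test p = 0.0039, adjusted p = 0.0156 over 8 comparisons). With at least 50 cells on each side the difference was 0.78 and the call was lost (exact permutation test, adjusted p = 0.0625). On day 7 Sox9-positive cells held 542 and 615 CPM of Sox4 against 433 and 479 in the others, and on day 14, in the first library, 156 against 23.6. Cd24a in the same cells differed by 0.96 (SD 0.97, exact permutation p = 0.0195, adjusted p = 0.0521), higher in 7 of 9 libraries. It passed without the first day 7 library (1.09, exact permutation test, adjusted p = 0.0417) or the second (1.10, exact permutation test, adjusted p = 0.0417). At equal depth the share of cells with a UMI was higher in Sox9-positive cells in 9 of 9 libraries for Sox4 and in 5 of 9 for Cd24a. Sox9-positive cells were deeper, with medians of 2737 to 13452 UMIs against 1394 to 2870, and less often proximal in most libraries. Within proximal cells alone the Sox4 difference was 1.37 in 6 of 6 libraries (SD 1.27, exact permutation p = 0.0313, adjusted p = 0.125), and in the other tubular cells 0.26 in 6 of 8 (SD 0.36, exact permutation p = 0.0469, adjusted p = 0.167). Here and below, tubular cells other than proximal are all those not gated as proximal. They include cells that no segment gate took (722 and 714 on day 7), so they may hold proximal cells. Without the second day 11 library, which had 22 positive cells, the proximal mean was 0.86, and without the first day 14 library, with 25, the mean of the other cells was 0.16. At equal depth the Sox4 share was higher in 6 of 6 libraries in proximal and in 5 of 8 in the other cells. The Cd24a difference, 0.96 over all tubular cells, was smaller within these classes. It was 0.16 in proximal cells (SD 0.33, 5 of 6 libraries, exact permutation p = 0.281, adjusted p = 0.45). In the other tubular cells it was 0.20 (SD 0.33, 7 of 8 libraries, exact permutation p = 0.125, adjusted p = 0.25).

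Cells with a UMI of Vcam1, an adhesion molecule of injured proximal cells, did not differ beyond the threshold in either gene. Over all tubular cells Sox4 differed by 0.69 (SD 1.46, 4 of 8 libraries higher, exact permutation p = 0.234, adjusted p = 0.313) and Cd24a by -1.08 (SD 1.03, 6 of 8 lower, exact permutation p = 0.0313, adjusted p = 0.0625). With at least 50 cells on each side the Sox4 difference turned to -0.295. Vcam1-positive cells were more often proximal, 47.7% and 60.2% on day 7 against 16.8% and 18.8% of the others. Within proximal cells Sox4 was higher in Vcam1-positive cells in 7 of 7 libraries, at 323 against 251 CPM and 489 against 152 CPM on day 7 and 191 against 12.5 and 145 against 10.4 CPM on day 11, where the positive cells numbered 22 and 20. The mean difference was 1.68 (SD 1.48, exact permutation p = 0.0156, the smallest that 7 libraries allow, adjusted p = 0.125). Without both day 11 libraries it was 0.85. Proximal Cd24a differed by 1.15 (SD 1.53, 5 of 7 higher, exact permutation p = 0.0781, adjusted p = 0.208), and by 0.30 without both day 11 libraries. In other tubular cells Cd24a was lower in Vcam1-positive cells in 5 of 5 libraries, by -0.69 (SD 0.23, exact permutation p = 0.0625, the smallest that 5 libraries allow).

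Cells called cycling had more Cd24a. The gate was at least 2 UMIs over Mki67, Top2a, Cdk1, Ccnb1, Birc5, Ube2c, Cenpf and Hmgb2 together. It also took 292 of 5434 tubular cells of the uninjured control, with median UMIs of 9005.5 against 2783.5 in the rest. Whether the called cells were dividing was not tested. The difference in Cd24a was 0.95 (SD 0.67, 9 of 10 libraries, exact permutation p = 0.0039, adjusted p = 0.0156), with 1176 against 924 and 1488 against 1149 CPM on day 7. In tubular cells not gated as proximal, those of unknown segment included, it was 0.40 (SD 0.27) and held in 10 of 10 libraries (exact permutation p = 0.00195, adjusted p = 0.0156). Cycling cells there were deeper, with median UMIs of 6495 against 1861 in the second day 7 library. At equal depth the share of cells with a Cd24a UMI was higher among them in 8 of 10 libraries, and lower on day 1 (61.6% against 63.2%) and day 4 (59.8% against 61.5%). In proximal cells it was 0.35 (SD 1.47, 5 of 10, exact permutation p = 0.488), and it was 0.016 without the second day 11 library, 0.14 without the first and -0.26 without both, and 0.59 without the first day 14 library. Sox4 differed by 0.43 over all tubular cells (SD 0.60, 7 of 10, exact permutation p = 0.0723, adjusted p = 0.116), by 0.02 in the cells other than proximal, with -0.066 to 0.066 when 1 library was left out, and by -0.21 in proximal cells, with -0.34 to -0.033 when 1 was left out and -0.47 without both day 11 libraries. Cells with at least 2 UMIs of the injury markers Havcr1, Krt20, Sprr2f, Sprr2g and Sprr1a showed 0.01 for Sox4 (SD 0.33) and -0.24 for Cd24a (SD 0.50) over 5 libraries, where an exact permutation test cannot go below p = 0.0625. These cells were more often proximal, except on day 2, with 47.9% against 21.5% in the second day 7 library. Within proximal cells Sox4 differed by 0.40 (SD 0.57) and Cd24a by 0.29 (SD 0.83), each higher in 3 of 5 libraries. At equal depth the proximal share with a UMI was higher in 4 of 5 libraries for each gene.

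**Figure D4:**
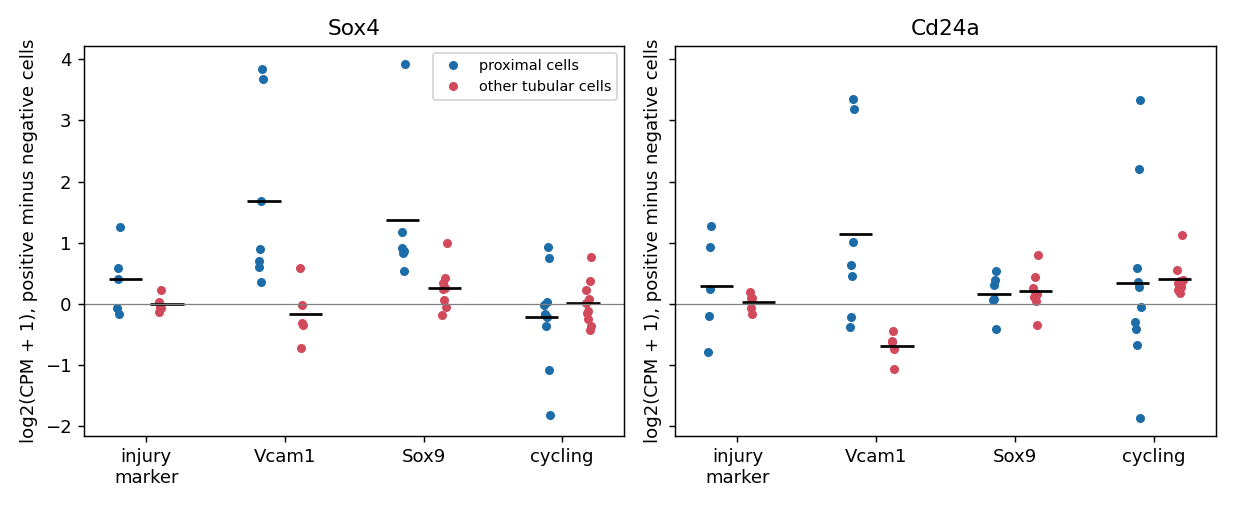
Difference in log2(CPM + 1) of Sox4 (left) and Cd24a (right) between cells positive and negative for each state in the same library. Gated proximal cells are blue, and all other tubular cells, those of unknown segment included, are red. Points are libraries and black bars are means: Vcam1-positive proximal cells had more Sox4 in 7 of 7 libraries, and cycling cells outside the proximal class more Cd24a in 10 of 10.

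Sox4 and Cd24a were next counted in the same cell, with cells thinned to 1000 UMIs and shallower cells left out. On day 7, 232 of 1276 and 420 of 2022 tubular cells held both, or 18.2% and 20.8%, against 76 of 5207 in the control (1.46%) and 37 of 5896 and 26 of 5375 on day 14 (0.628% and 0.484%). Cells with both were set against the number expected if the genes were independent over all tubular cells. They were 3.05 times as many in the control, 1.21 on day 1, 1.84 on day 2, 1.42 on day 4, and 1.13 and 1.15 on day 7. On day 11 they were 3.19 and 2.91 times as many, and on day 14 they were 4.03 and 2.40 times. The ratio was thus largest where each gene was rare, but its upper limit is also higher there, so it does not rank the days. The expected number was also taken within each tubular class and summed, an alternative added after the first ratio was seen. These ratios were 1.16 in the control, 1.01 on day 1, 1.07 on day 2, 1.13 on day 4, and 1.03 and 1.05 on day 7. On day 11 they were 1.16 and 1.04, then 1.39 and 0.852 on day 14, with a median of 1.06 over all libraries. Most of the joint detection is matched by the classes that hold both genes.

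The same ratio was taken for other pairs. Its upper limit falls as a gene becomes common, with Actb in 2938 and Sox9 in 12 of 5207 control cells. The libraries that entered also differ between pairs, so the medians do not share a scale. Within classes, Sox4 with Sox9 had a median of 1.27 over 5 libraries, all above 1, with Prom1 1.21 over 6, with the keratin Krt8 1.15 over 10 and with Vcam1 1.12 over 5, while the housekeeping genes Actb and Eef1a1 gave 1.02 and 1.004. Cd24a with Lcn2, an iron-binding injury protein, gave 1.16 over 9, with Krt8 and Krt18 1.11 each and with Actb 1.03, and with Vcam1 0.953, under 1 in all 5 libraries. With the injury marker Havcr1 it gave 0.730, also under 1 in all 5 libraries and the lowest median of the pairs, and Sox4 with Havcr1 gave 0.909 over 5. With the proximal receptor gene Lrp2 both ran under 1, at 0.835 for Sox4 and 0.802 for Cd24a. In proximal cells of day 7, 8 of 350 and 28 of 630 held both genes, where 8.69 and 19.2 were expected. In all ratios within classes, the tubular cells that no segment gate took count as 1 class, although they may hold several segments. The part of that mix in the ratios was not tested. Within gated proximal cells, the share with a Cd24a UMI at equal depth was higher in injury-marker-positive cells in 4 of 5 libraries. In Vcam1-positive proximal cells it was higher in 5 of 7.

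**Figure D5:**
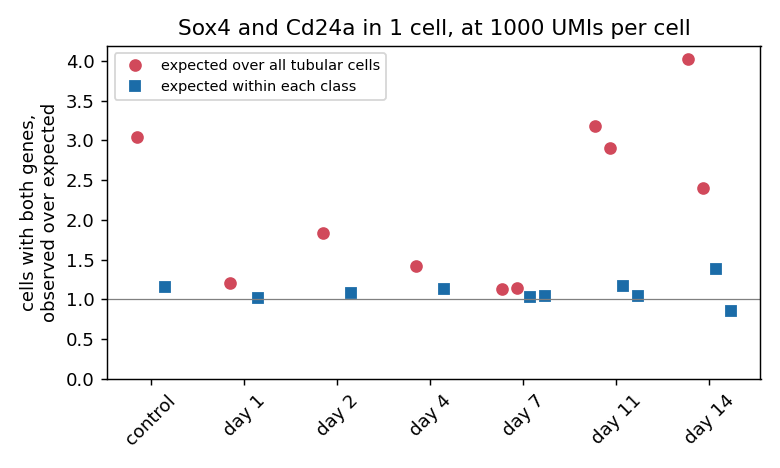
Number of tubular cells with both Sox4 and Cd24a over the number expected, by library and day, with the expectation taken over all tubular cells (circles) or within each class and summed (squares), at 1000 UMIs per cell. The first runs up to 4.03 and the second has a median of 1.06.

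Over the 10 tubular sums the log2 levels of Sox4 and Cd24a had a Pearson r of 0.977, and Cd24a ranked 36 among the 6320 genes with a mean of at least 20 CPM when ordered by likeness to Sox4. The days share the libraries, their depth and the mix of classes, so this is a description. The 8 genes most like Sox4 were Ptp4a2, Ampd3, 1700047I17Rik2, Zfp36l1, Gm26735, Rbms1, Map3k1 and Csnk1e, with r from 0.987 to 0.997, and the least like were Vps8, Ivd and Fmo5, with r of -0.98, -0.98 and -0.97. Those most like Cd24a were Serf1, Cldn4, Slc39a1, St14, Sdc1, Hnrnpa1, Ucp2 and Arpc1b, with r from 0.981 to 0.990, and the least like were Fmo5, Mut and Acadm. Over 11 gated classes the pattern of Sox4 was nearest that of Gm26735 (r = 0.991), then Ndufaf3, Serpinb1a, Slc41a1, Grb14, Cacfd1, Hoxb7 and Nbea, and r with Cd24a was 0.914. For Cd24a the nearest were Wbp5, Gm26735, Gstm2, Mecom, Tusc3, Nudt13, Sox4 and Hk1. Stmn1, Nufip1 and Cotl1 were least like Sox4 over the classes, and Cotl1, Cox16 and Stmn1 least like Cd24a.

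Of the SOX family, 19 genes stood in the tables and 9 were tested in tubular cells. On day 7, 4 were higher than in the control (Sox4, Sox8, Sox9 and Sox13), 1 was lower (Sox6) and 4 did not pass, with a median log2 change of 0.79 against 0.04 over all genes. Sox6 did not pass on library totals with no scaling factor, without the second day 7 library or either day 14 library, or in a fit of the groups compared alone, and DESeq2 called 2 higher and 0 lower. Sox9 rose by 3.01 (SE 0.33, edgeR adjusted p = 8.92e-05), from 3.86 CPM to 53.3 and 52.8. On day 11 Sox6 was lower and edgeR called 0 higher, with 1 at an unadjusted p under 0.05 and 0 in DESeq2, and on day 14 Sox4 and Sox9 were lower than the control. Sox9 stood at 1.77 and 1.12 CPM there (-1.32, edgeR adjusted p = 0.0438).

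Of 20 nephron progenitor and early nephron genes, 17 were tested in the tubular sums and 8 rose on day 7, with 2 lower and a median of 1.20. The part of the class mix in these changes was not tested. The lower genes were 4 with cells of every class and 1 on library totals. Ncam1, a neural adhesion molecule of the early nephron, went from 1.47 CPM to 18.1 and 13.1 (2.61, SE 0.32, edgeR adjusted p = 0.000158), Npnt, a matrix ligand of integrins, from 90.5 to 614 and 386 (1.68) and Jag1, a Notch ligand, from 15.7 to 67.1 and 57.5 (1.21). Lhx1 and Bmp7 were lower, with Lhx1 at 62.8 CPM in the control and 35.8 and 40.4 on day 7, and Bmp7 at 17.7 and then 10.6 and 13.6. The Bmp7 value did not pass on library totals with no scaling factor (-0.52, edgeR adjusted p = 0.0767). On day 11, 0 were higher and 2 lower (Lhx1 and Emx2) in edgeR, with 2 and 3 at an unadjusted p under 0.05, and 0 and 1 in DESeq2. On day 14, 0 were higher and 2 lower (Pax2 and Jag1) in edgeR, with 3 and 5 at an unadjusted p under 0.05, and 0 and 2 in DESeq2.

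Of 14 partners of CD24 and genes of scattered tubular cells, 12 were tested, of which 9 rose on day 7 and none fell, with a median of 1.37; at an unadjusted p under 0.05 edgeR gave 11 higher and 0 lower, and DESeq2 called 9 and 0. Cd44, the hyaluronan receptor, went from 0.322 CPM to 120 and 184 (8.09, SE 0.68, edgeR adjusted p = 1.77e-05), S100a6, a calcium-binding protein, from 3.57 to 764 and 786 (6.98), and Anxa3, an annexin, from 1.57 to 175 and 174 (6.01). On day 11, 4 were still higher (Krt19, Vim, S100a6 and Anxa3), and on day 14 edgeR and DESeq2 each called 0, with 2 higher and 2 lower at an unadjusted p under 0.05. Of 14 genes of TGF-beta signalling and around SOX4, all tested, 7 rose on day 7 and none fell, with 10 higher and 0 lower at an unadjusted p under 0.05 and 6 and 0 in DESeq2, and with a median of 1.25. On library totals with no scaling factor 13 were higher. On day 11, 1 was higher (Tead2) and 4 were lower (Tgfbr1, Smad2, Smad4 and Smad7), and DESeq2 called 1 and 2. On day 14 edgeR and DESeq2 each called 0, with 1 higher and 0 lower at an unadjusted p under 0.05. Smad3, which carries the signal to the nucleus, went from 3.36 CPM to 17.9 and 13.8 (1.44, SE 0.29), and the receptor genes Tgfbr2 from 13.7 to 54.7 and 43.5 (1.06, SE 0.25) and Tgfbr1 from 25.3 to 64.3 and 70.1 (0.64, SE 0.20). The Tgfbr1 call was lost in DESeq2 (0.62, adjusted p = 0.0874), with no filter on low counts, in a fit of the groups compared alone, and without the second day 7 library or either day 14 library. These lists were chosen with results of these data known, and their shares of called genes stand beside 34.4% of all genes on day 7, 18.4% on day 11 and 7.96% on day 14. Every list was read in the tubular sums. Gated proximal cells there were 3718 of 5434 in the control and 437 of 1785 and 689 of 2373 on day 7. The part of this mix, and of RNA from macrophage and stromal cells, in the list results was not tested.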

How the data were processed

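Single cells of mouse kidney cortex were counted by Drop-seq in 10 libraries. Per the submitters' processing notes, Bowtie2 2.2.7 and mm10 were used; other steps of the authors are not given in the sources used here. The deposited values are raw UMI counts per gene and cell. Cells with at least 500 UMIs, 500 genes and no more than 50% mitochondrial UMIs entered. Scrublet marked at most 6 cells per library, so it was not used to remove doublets; leaving out the highest 5% of its scores was an alternative. Counts were summed per class and library and tested with edgeR 4.0.16 (R 4.3.3; filterByExpr, TMM, quasi-likelihood test, Benjamini-Hochberg, threshold 0.05), 1 term per group over the 10 libraries. The spread comes from the pairs of days 7, 11 and 14, with 3 residual degrees of freedom. Days 1, 2 and 4, with 1 library each, are described and were not tested. DESeq2 was an alternative. On simulated counts for tubular day 7 against control, 92.0% of 200 genes changed 4-fold were recovered among 15418 tested. The changed genes were drawn from those with a mean above 50 counts, and all genes had the same dispersion of 0.05. The share recovered therefore need not hold for the deposited counts. State comparisons used exact sign-flip tests over libraries with at least 20 cells on each side and a pseudocount of 1 CPM. Macrophage, and not neutrophil or endothelial, cells served as background, since only 1 library held 20 neutrophils. Whether macrophage cells express either gene was not tested.

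The members and lists were chosen with earlier results of these data known. From each list at most 3 genes per direction were named, those with the largest day 7 change past the threshold, a mean level of 3 or more in log2 CPM and the same direction in both libraries, with the 8 genes most and 3 least like each member; genes named to account for a count of 5 or fewer were chosen after their values were seen. Fewer cells of a type and less RNA per cell cannot be told apart in summed counts. Intervals cover counting error only.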

Additional observations from a re-analysis of the deposited data

Results flagged for a closer look

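The log2 change from control to day 7 differed between proximal and thick limb cells for both genes. In a test of the difference itself it was 3.40 for Sox4 and 1.94 for Cd24a on the log2 scale, larger in proximal cells. For Sox4 it was 1.34 on day 11, a call that was lost with the stricter gate, with no filter on low counts and without any 1 of the day 11 and day 14 libraries. Both classes come from the same libraries, and the control is 1 library. Proximal Cd24a in CPM was below that of macrophage cells in 5 of the 6 libraries with more than 3 macrophage Cd24a UMIs. It was 0.978 times the macrophage level on day 2, 0.918 on day 4 and 0.899 in the first day 7 library. The libraries left out held fewer macrophage UMIs, and whether macrophage cells express Cd24a was not tested. At equal depth the share of cells with a Cd24a UMI was higher in proximal cells on day 2 and in the second libraries of days 7 and 11, and lower in the others compared.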

How the results depend on the processing

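The day 7 rises of both genes in tubular, proximal and thick limb cells, and their drops from day 7 in tubular cells, the class in which these were tested, kept direction and call under every alternative run. With 1 control library, every comparison with it rests on that library. The number of macrophage cells limits their values in the control and on days 11 and 14, which rest on 4 or fewer UMIs of each gene.

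DESeq2 called 826 genes for proximal day 14 against control, 890, 292 and 40 for thick limb days 7, 11 and 14, and 31, 36 and 13 for endothelial days 7, 11 and 14, where edgeR called 1308, 2354, 1197, 146, 245, 322 and 120. With no filter on low counts, 2415 tubular, 2112 proximal and 453 thick limb genes were called on day 14, tubular Cd24a on day 14 was -0.74, thick limb Sox4 on day 14 was -0.87 and the class difference of Sox4 on day 11 was 1.29, its call lost. In fits of only the groups compared, 4605 (day 11) and 3163 (day 14) tubular genes were called, against 3008 and 1297, Sox4 on day 11 was -0.57 and Cd24a on day 14 was -0.71, both then past the threshold. With cells of every class, 3148 genes differed between days 14 and 11, against 1989. The stricter gate gave endothelial Sox4 of 1.36 on day 7 and 0.084 on day 11, endothelial Cd24a of 0.94 on day 11, thick limb Cd24a of 0.0015 on day 14 and a class difference of Sox4 of 1.18 on day 11, its call lost. Without the small-count adjustment of the dispersion the class difference of Cd24a on day 11 was 0.88 and passed. On library totals with no scaling factor, added after the data were seen, 8848 tubular (7720 higher, 1128 lower, against 2688 and 2927) and 4352 thick limb genes were called on day 7, proximal Sox4 was 0.92 on day 11 and 0.047 on day 14, endothelial Sox4 was 1.45 on day 7 and thick limb Cd24a was 0.028 on day 14. The cause of these shifts was not tested.

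With at least 50 cells on each side, Sox4 differed by 0.78 in Sox9-positive cells, which ended the call, and by -0.295 in Vcam1-positive cells. In proximal cells alone Cd24a differed by 1.15 (Vcam1), 0.29 (injury markers, 0.048 without the second day 7 library, 0.14 without day 4 and 0.56 without day 1) and 0.35 (cycling, 0.016 without the second day 11 library), and Sox4 by 1.37 (Sox9) and -0.21 (cycling). In other tubular cells Sox4 differed by 0.26 (Sox9), -0.16 (Vcam1, -0.35 without day 1 and -0.024 without day 2) and -0.0012 (injury markers), and Cd24a by 0.029 (injury markers). The split-off of other tubular cells, which include those of unknown segment, and the state values without single libraries were chosen after seeing the data.

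Leaving out 1 library at a time, tubular Sox4 ranged from -1.27 to -1.24 (day 14 against control) and from -1.05 to -0.46 (day 14 against 11), and tubular Cd24a from -1.23 to -0.88 (day 14 against 11). Proximal Sox4 on day 11 ranged from 0.59 to 0.96. Thick limb Cd24a ranged from 0.55 to 0.74 on day 11 and from -0.040 to 0.034 on day 14. Endothelial Sox4 ranged from 1.09 to 1.34 on day 7, -0.80 to 0.31 on day 11 and -1.32 to 0.0054 on day 14, and endothelial Cd24a from 0.78 to 1.01 on day 11. The class difference of Sox4 on day 11 ranged from 1.22 to 1.47, Cd24a in Sox9-positive cells from 0.74 to 1.10 and Sox4 in injury-marker-positive cells from -0.081 to 0.12. Counts of genes called ranged, for tubular cells, from 747 to 4346 on day 11, 226 to 2527 on day 14, 4688 to 6906 from day 7 to 11 and 460 to 2812 from day 11 to 14, for proximal cells from 1016 to 4233 and 317 to 2300 on days 11 and 14, for thick limb cells from 383 to 2001 and 62 to 407, and for endothelial cells from 158 to 306, 71 to 514 and 48 to 163 on days 7, 11 and 14.

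Libraries of days 7, 11 and 14 share numbers, but same-numbered libraries did not deviate together (correlations of 0.10, -0.01 and -0.07). With the replicate number as a block, 7286, 7356 and 2095 genes were called from day 7 to 11, 7 to 14 and 11 to 14, and Sox4 changed by -2.60, -3.42 and -0.82, with no call on either gene changed.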
